A study of Homo sapiens with 65 samples.

Results

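Cardioids are heart-like spheres that self-organise from human pluripotent stem cells. The genes described here are 10 genes of the desmosome and the intercalated disc, the junction that joins heart muscle cells end to end: CDH2, PKP2, DSP, JUP, DSG2, DSC2, CTNNA2, CTNNA3, GJA1 and XIRP1. They were taken by symbol from a table of 58735 gene IDs, all 10 were found, and all 10 passed the filter on low counts in both experiments of the study. The set was chosen by measured values of these data, the KO minus WT and hyaluronidase minus untreated differences at days 2.5 and 4.5: PKP2 had been called at day 2.5 and CTNNA2 at day 4.5 both in a genetic and in an enzymatic experiment, so those values describe the choice and are given below without a test. Steps of PKP2 from or to day 2.5 and of CTNNA2 from or to day 4.5 use the same libraries. Their p-values below are therefore not independent of the choice.

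The study asked what the extracellular polysaccharide hyaluronan does in left-ventricular cardioids of the human line WTC-11 (induced pluripotent stem cells), and 65 libraries in 16 groups were analysed. In the genotype experiment, 41 libraries compared wild-type (WT) cardioids with cardioids labelled HAS2-KO (knockout of hyaluronan synthase 2) at days 1.5, 2.5, 4.5 and 7.5, with 5 WT and 6 KO libraries at day 1.5, 6 of each at days 2.5 and 4.5, and 3 of each at day 7.5. In the enzyme experiment, 24 libraries came from untreated cardioids and from cardioids exposed to hyaluronidase, which degrades hyaluronan; exposure began at day 1.5 in the groups called HAse1.5 and a day later in those called HAse2.5, with 3 libraries per group at days 2.5, 4.5 and 7.5 (none at day 2.5 for HAse2.5). Each library pooled 8 cardioids, all groups share the WTC-11 background and the differentiation, the WT libraries carry 4 line names (WT, WT_TU, cl43_WT_UT and TNT2), the KO libraries come from 4 clones (cl4, cl14, cl46 and cl51), and the 3 enzyme replicates are the lines labelled TNNI1, WT and TNNT2. At days 1.5, 2.5 and 4.5 clone cl4 gave libraries cl4_R1, cl4_R2 and cl4_R3 and each other clone a single library. The KO libraries are therefore not spread evenly over clones, and the tests took each library as a replicate. The KO libraries at day 7.5 come from clones cl4 and cl14, so 2 clones stand for the genotype there.

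Library totals ran from 831062 to 3574843 counts with a median of 1570954. Library numbers of the genotype experiment fall into 3 blocks, called library sets A, B and C here, and the labels do not say what the blocks stand for. The HAS2 levels of KO and WT libraries overlapped on each day, with 93.9 to 301 CPM (read counts per 1000000 counts of the library) in KO against 87.0 to 310 in WT at day 1.5, 442 to 913 against 370 to 869 at day 2.5, 286 to 485 against 150 to 482 at day 4.5 and 271 to 378 against 187 to 363 at day 7.5; the libraries read transcript 3′ ends, the deleted stretch is not given in the sources used here, and these counts therefore check nothing. The summed level of 9 cardiomyocyte markers rose from between 62.7 and 114 CPM at day 1.5 to between 53257 and 64917 CPM at day 7.5 in WT. Nothing in the labels says that the libraries of a group came from separate differentiations beyond their line names, so p-values measure the spread between these libraries.

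Desmosomes couple intermediate filaments of neighbouring cells: the cadherins DSG2 and DSC2 span the gap between cells, the armadillo proteins JUP (plakoglobin) and PKP2 (plakophilin 2) bind them inside, and DSP (desmoplakin) ties the complex to desmin. Adherens junctions couple actin: CDH2 (N-cadherin) spans the gap, and the alpha-catenins, here CTNNA2 (the form first known from nerve cells) and CTNNA3 (the form of heart and testis, which also binds PKP2), link it to actin. GJA1 (connexin 43) forms the gap junctions through which working heart muscle conducts, and XIRP1 (Xin) is an actin-binding protein of the intercalated disc. In the adult heart these complexes mix at the disc, and inherited defects in the desmosomal genes cause arrhythmogenic cardiomyopathy.

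The promoters of 4 of these genes are shown because their levels moved most closely together, or in opposition, over the 16 groups: on the log2 CPM scale DSP, CTNNA3 and XIRP1 had Pearson correlations of 0.964, 0.970 and 0.976 with one another, and GJA1 had -0.962, -0.979 and -0.970 with DSP, CTNNA3 and XIRP1. These are descriptions over 16 groups that share days of differentiation and, in part, cell lines. Each window runs from 250 bases before to 50 after a transcription start in RefSeq (GRCh38.p14), 5′ to 3′ on the gene's strand, with searched motifs in capitals. The windows are chr6:7541421-7541720 (plus strand) for DSP, chr3:39192546-39192845 (minus strand) for XIRP1, chr10:67696146-67696445 (minus strand, the more upstream of the starts listed) for CTNNA3 and chr6:121435396-121435695 (plus strand) for GJA1.
DSP: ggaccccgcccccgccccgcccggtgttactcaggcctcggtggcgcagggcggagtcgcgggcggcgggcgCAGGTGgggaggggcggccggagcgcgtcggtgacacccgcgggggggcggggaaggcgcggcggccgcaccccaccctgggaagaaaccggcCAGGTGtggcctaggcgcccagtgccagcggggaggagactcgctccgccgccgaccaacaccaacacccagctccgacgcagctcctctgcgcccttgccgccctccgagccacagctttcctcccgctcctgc
XIRP1: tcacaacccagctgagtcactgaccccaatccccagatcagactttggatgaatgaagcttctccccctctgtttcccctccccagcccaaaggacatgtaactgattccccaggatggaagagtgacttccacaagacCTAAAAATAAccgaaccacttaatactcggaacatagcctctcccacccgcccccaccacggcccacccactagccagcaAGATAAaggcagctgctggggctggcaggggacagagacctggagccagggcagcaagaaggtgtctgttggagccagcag
CTNNA3: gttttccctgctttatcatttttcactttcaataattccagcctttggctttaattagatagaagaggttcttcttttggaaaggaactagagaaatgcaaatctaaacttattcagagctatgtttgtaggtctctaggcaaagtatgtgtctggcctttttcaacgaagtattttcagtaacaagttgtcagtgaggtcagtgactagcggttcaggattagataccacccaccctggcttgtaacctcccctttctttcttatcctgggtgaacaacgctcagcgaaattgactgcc
GJA1: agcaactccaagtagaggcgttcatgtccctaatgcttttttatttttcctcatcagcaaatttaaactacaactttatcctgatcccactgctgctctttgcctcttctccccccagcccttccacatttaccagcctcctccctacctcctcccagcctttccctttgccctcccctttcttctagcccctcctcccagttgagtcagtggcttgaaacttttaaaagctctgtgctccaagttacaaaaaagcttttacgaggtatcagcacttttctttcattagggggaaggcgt
The motifs searched on both strands were the E-box CACCTG, the GATA-factor motif AGATAA, the TEAD-factor motif CATTCC, the TATA-box motif TATAAA, the MEF2 motif and the CArG box of SRF. The TATA-box motif may overlap a MEF2 motif. The DSP window holds CACCTG at 2 places, and 20.6% of 34796 RefSeq windows hold it. The XIRP1 window holds 1 MEF2 motif (3.0% of windows) and 1 AGATAA (10.4% of windows). The windows of CTNNA3 and GJA1 hold none of the 6 motifs. Base composition also differed: the DSP window has a GC content of 77.0% and 37 CpG dinucleotides, against 40.7% and 4 for CTNNA3, 47.0% and 3 for GJA1 and 56.0% and 4 for XIRP1, where the medians over all windows are 58.7% and 14. A match is a run of letters and says nothing of binding.

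The 10 genes took different courses during differentiation, as the plot of the genotype experiment shows. In WT from day 2.5 to 4.5, 5 of the 10 rose (CDH2, PKP2, DSP, CTNNA3 and XIRP1) and 2 fell (GJA1 and CTNNA2), where 18.6% of all 13797 genes tested rose and 15.9% fell (edgeR, adjusted p under 0.05). In KO over those days CDH2, PKP2, DSP, CTNNA3 and XIRP1 rose too and GJA1 and DSG2 fell, against 15.6% and 14.9% of all genes. In untreated cardioids CDH2, PKP2, DSP, CTNNA3 and XIRP1 rose and GJA1 and DSG2 fell, against 12% and 11.1% of 12748 genes tested, and with HAse1.5 6 rose (PKP2, DSP, DSC2, CTNNA2, CTNNA3 and XIRP1) and GJA1 fell, against 11.7% and 11%. The median log2 change over the 10 genes was 1.12 in WT, 0.85 in KO, 0.96 in untreated and 0.88 in HAse1.5 cardioids, beside medians over all genes between 0.00 and 0.03.

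**Figure D1:**
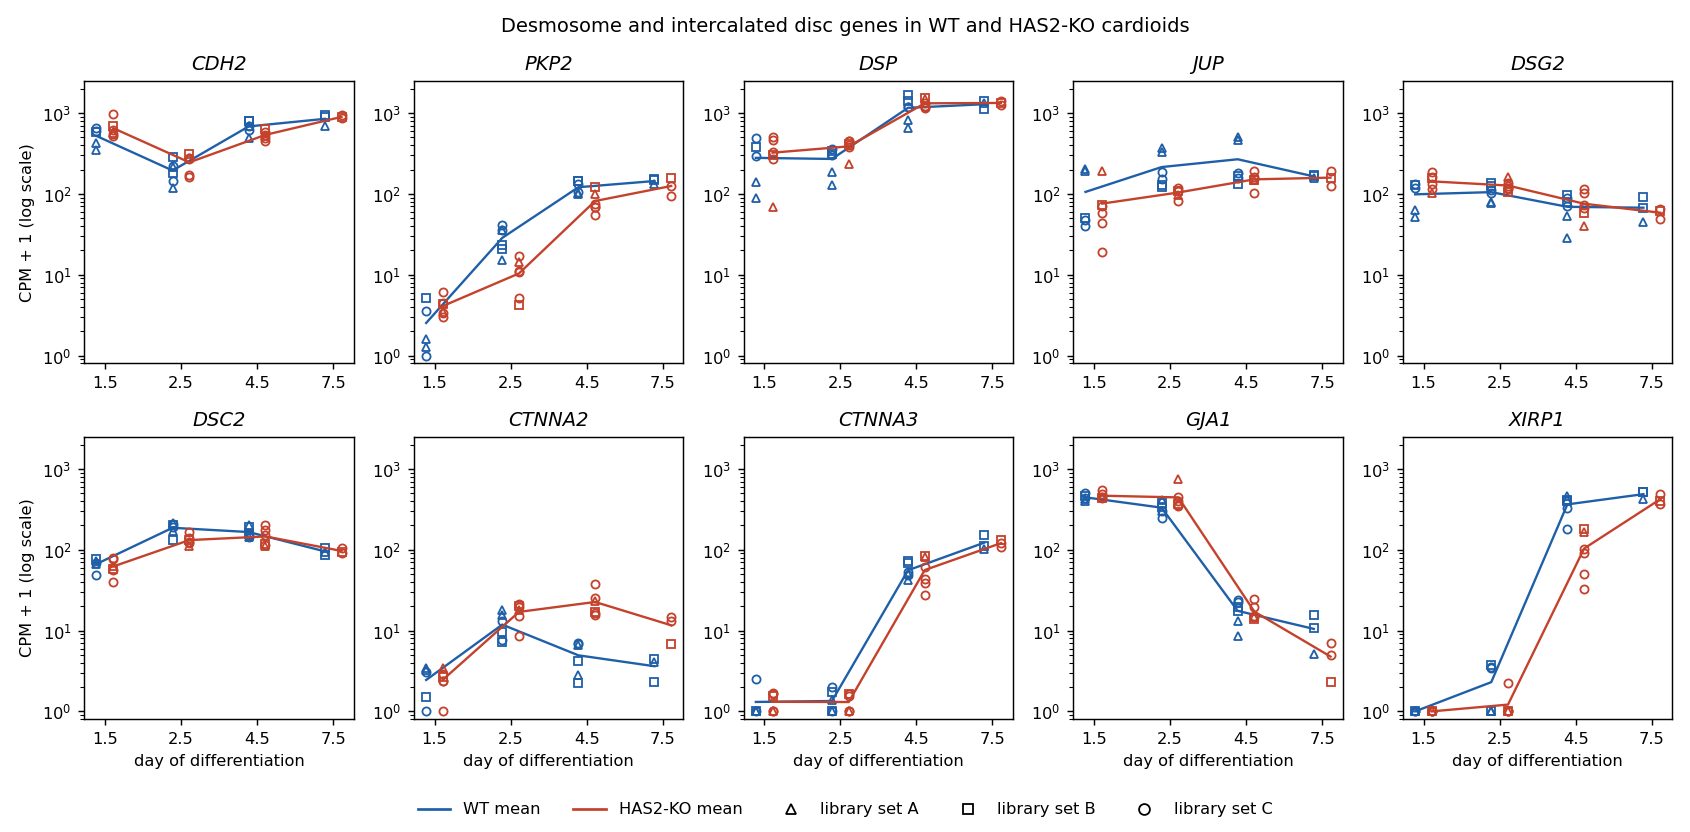
Levels of the 10 genes in each WT and HAS2-KO library by day, as CPM + 1 on a log scale; symbols mark the library set and lines join group means. XIRP1 and CTNNA3 climb between days 2.5 and 4.5 while GJA1 drops from a mean of 331 to 16.5 CPM in WT.

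The earlier and later steps moved fewer of them. From day 1.5 to 2.5 in WT, PKP2, DSC2, CTNNA2 and XIRP1 rose and CDH2 and GJA1 fell, where 15% of all genes rose and 15.1% fell, and in KO PKP2, DSC2 and CTNNA2 rose and CDH2 fell, against 17.2% and 16.1%. From day 4.5 to 7.5, DSC2 alone fell in WT, where 1.25% of all genes rose and 1.44% fell, and in HAse2.5 cardioids (1.33% and 0.604%). In KO, CDH2, CTNNA3 and XIRP1 rose and GJA1 fell over those days (3.21% and 3.01%), in untreated cardioids CTNNA3 rose and DSC2 fell (3.45% and 2.93%), and with HAse1.5 CDH2, CTNNA3, DSP and XIRP1 rose and DSC2 and GJA1 fell (4.35% and 3.82%). Genes that passed in one group and not in another are not shown to differ between the groups. Where every library of a day lay above or below those of another day, the share of all genes that did so was not counted. With the line as a block JUP fell in untreated cardioids from day 4.5 to 7.5 (log2 change -1.32, adjusted p = 0.0409 by edgeR, against -1.25 and 0.0582 without it).

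Among the desmosomal cadherins, DSC2 (chr18:31058840-31102522, minus strand) rose and then receded, while DSG2 (chr18:31498043-31549008, plus strand) fell in KO and in untreated cardioids. DSC2 stood at 64.9, 72.5, 76.2, 67.1 and 48.1 CPM in the WT libraries at day 1.5. At day 2.5 its WT libraries ran from 131 to 213 CPM with a median of 198. The rise was 1.29 ± 0.18 (log2, SE) in WT and 0.88 ± 0.17 in KO, with adjusted p of 2.22e-07 and 5.95e-05 (edgeR), and it held in all 17 and all 18 alternative settings run.
DSC2 then fell from 186, 222 and 203 CPM at day 4.5 to 73.2, 100 and 57.1 at day 7.5 in untreated cardioids, by 1.29 ± 0.19 (adjusted p = 4.42e-04 by edgeR, past the threshold in 11 of 11 alternatives). In WT the fall of 0.78 ± 0.21 (adjusted p = 0.03) passed in 8 of 15 alternatives, and it was lost without any 1 of WT_TU_R1 or WT_TU_R2 at day 4.5 or of the 3 libraries at day 7.5.
DSG2 ran from 76.8 to 137 CPM in WT at day 2.5 and from 27.2 to 95.2 at day 4.5. It fell by 0.75 ± 0.24 in KO over those days (adjusted p = 0.015), a call lost without cl4_R1 at day 4.5 (adjusted p = 0.0509), and by 0.74 ± 0.26 in untreated cardioids (adjusted p = 0.0372), a call lost without TNNI1 or WT at day 4.5 or WT or TNNT2 at day 2.5. In WT its difference was -0.58 ± 0.24 (adjusted p = 0.0571), and -0.61 ± 0.18 with the library set as a block (adjusted p = 0.00387 by edgeR).

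Of the plaque proteins, PKP2 (chr12:32790745-32896840, minus strand) had the steepest climb from a low start. In WT it stood at 0.28, 0.60, 4.18, 0 and 2.58 CPM at day 1.5, at most 8 counts in a library. At day 2.5 it ran from 14.2 to 40.3 CPM with a median of 28.3, and at day 4.5 from 99.0 to 144 with a median of 118. The rises were 4.12 ± 0.44 and 2.15 ± 0.30 (log2, SE; adjusted p = 1.29e-09 and 3.17e-07 by edgeR), and both held in all 17 and 18 alternatives. In KO the 2 steps were 1.37 ± 0.41 (adjusted p = 0.00857) and 3.16 ± 0.34 (adjusted p = 9.24e-10), and with HAse1.5 PKP2 rose by 3.56 ± 0.36 from day 2.5 to 4.5 (adjusted p = 2.73e-07). The day 2.5 libraries belong to the choice of PKP2, so p-values of its steps from or to that day are not independent of it. From day 4.5 to 7.5 it passed the threshold in none of the 5 conditions (edgeR; log2 changes 0.02 to 0.67).

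DSP (chr6:7541575-7586717, plus strand) did not pass the threshold from day 1.5 to 2.5 in either genotype and climbed in the next step. Untreated libraries stood at 319, 549 and 459 CPM at day 2.5 and at 1281, 1117 and 1202 at day 4.5. The rise was 1.32 ± 0.23 in untreated cardioids (adjusted p = 2.13e-04), 2.15 ± 0.32 in WT (1.13e-06) and 1.78 ± 0.32 in KO (2.62e-05), and it held in all 11, 18 and 18 alternatives. With HAse1.5 the same step was 0.78 ± 0.23 (adjusted p = 0.0169), lost without TNNI1 or TNNT2 at day 2.5 or WT at day 4.5, and a second rise of 0.84 ± 0.23 followed to day 7.5 (adjusted p = 0.0221), lost without TNNI1 or TNNT2 at either day. At day 7.5 the means lay between 1170 and 1338 CPM in all 5 groups.

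JUP (chr17:41754604-41786931, minus strand) passed the threshold in none of the 24 comparisons (edgeR), and its libraries split by library set. At day 1.5, WT libraries of set A held 190 and 200 CPM and the others 49.6, 46.6 and 38.8; the KO library of set A held 192 and the other 5 held 17.9 to 71.4. At day 4.5, WT libraries of set A held 471 and 505 CPM and the other 4 held 131 to 180, but the KO library of set A held 149, within the 100 to 191 of the other KO libraries. Set A was therefore high in WT at days 1.5, 2.5 and 4.5 and in KO at day 1.5, and not in KO at days 2.5 and 4.5.
Without the 10 libraries of set A, JUP rose from day 1.5 to 2.5 by 1.58 ± 0.26 in WT (adjusted p = 1.53e-05 by edgeR) and by 0.84 ± 0.21 in KO (adjusted p = 0.00168), against 0.77 ± 0.44 (0.198) and 0.20 ± 0.43 (0.765) with them. Leaving out set A, here and below, was chosen after seeing the data, so these p-values are not independent of that choice. Without set A 2317 of 13739 genes rose in WT and 2993 in KO, against 2071 and 2376 of 13797 with it. With the library set as a block the WT rise was 1.05 ± 0.30 (adjusted p = 0.00533). The KO minus WT difference of JUP at day 4.5 was -0.93 with set A and -0.13 without it. At day 2.5, which also belongs to the choice, it was -1.11 with set A and -0.53 without it, and the KO libraries (80.6 to 119 CPM) lay below the WT libraries (121 to 365 CPM), also within each of the 3 sets; 1.82% of all genes had no overlap between the groups.

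DSP and DSG2 moved the other way in the same libraries. Set A lay below the other sets for DSP in 5 of the 7 groups that hold both, and for DSG2 in 6 of 7, with the KO library of day 2.5 the exception (162 CPM against 104 to 137). Set A holds 1 or 2 libraries of a group, and the share of all genes lying apart in this way was not counted. Nor is a split particular to these genes: across genes, WT_R1 and WT_R2 at day 1.5 had a chi-square per degree of freedom of 51.6. For WT_R2 and TNT2 it was 4.97, and for WT_R1 and WT_R2 at day 7.5 6.24. For DSP at day 4.5 the WT libraries of set A stood at 832 and 649 CPM and the others at 1189 to 1694. At day 7.5 the WT library of set A (1323 CPM) lay between the others (1122 and 1425). For the 3 genes what sets the library sets apart was not tested.

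**Figure D2:**
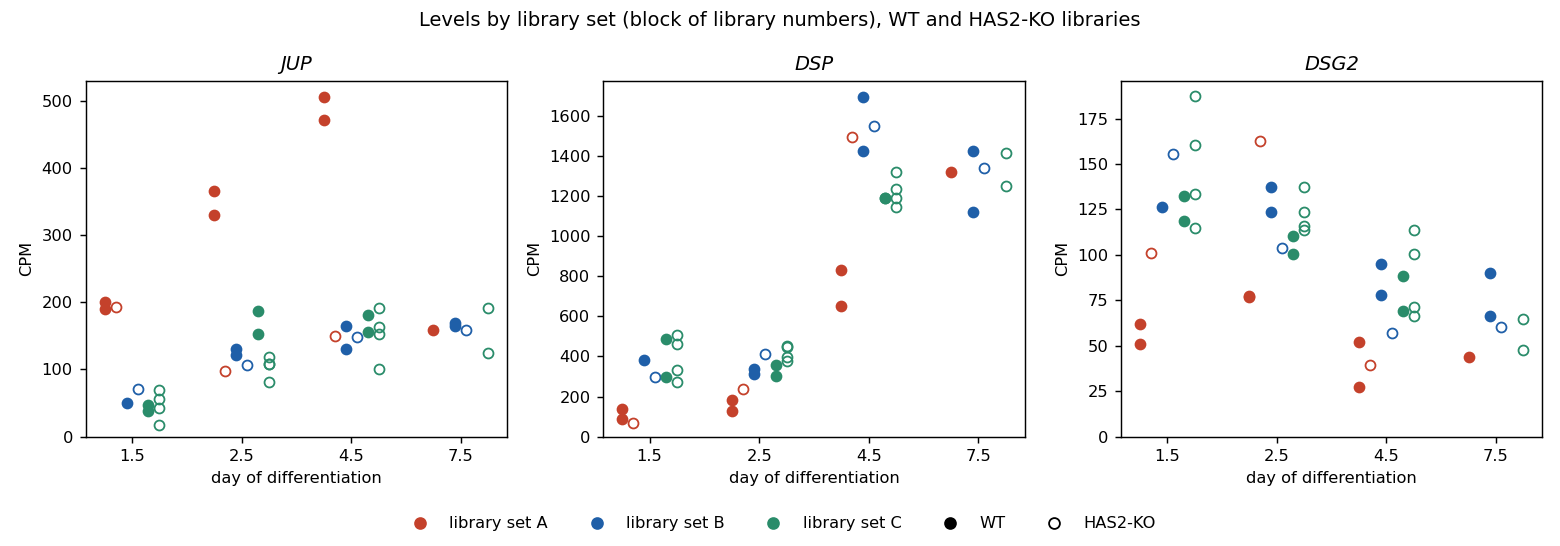
CPM of JUP, DSP and DSG2 in each WT (filled) and HAS2-KO (open) library by day, coloured by library set. In set A the WT libraries hold more JUP at days 1.5 to 4.5 (190 to 505 CPM against 38.8 to 187 in sets B and C) and less DSP (87.9 to 832 against 297 to 1694).

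In the adherens junction, CDH2 (chr18:27950966-28177446, minus strand) dipped and recovered. WT libraries held 346, 427, 584, 598 and 651 CPM at day 1.5, from 116 to 287 at day 2.5 and from 494 to 803 at day 4.5. All WT libraries of day 2.5 lay below all of days 1.5 and 4.5, and the share of all genes that did so was not counted. The fall was 1.62 ± 0.20 in WT and 1.64 ± 0.19 in KO (adjusted p = 2.91e-08 and 1.14e-08 by edgeR), and the recovery was 1.86 ± 0.19 and 1.16 ± 0.19 (4.29e-10 and 6.81e-06), with all alternatives past the threshold. With HAse1.5 the rise passed in the later step: 229, 161 and 244 CPM at day 2.5 were followed by 186, 283 and 209 at day 4.5 (log2 change -0.07 ± 0.24, adjusted p = 0.872) and by 661, 529 and 648 at day 7.5 (1.52 ± 0.24, adjusted p = 2.92e-04, 11 of 11 alternatives).

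CTNNA3 (chr10:65912518-67696169, minus strand) had at most 3 counts in any library up to day 2.5. At day 4.5 untreated libraries held 54.6, 38.2 and 43.1 CPM, at least 23.1-fold above the level of 3 counts per library; the same bound was 35.5-fold in WT, 26.7-fold in KO and 10.6-fold with HAse1.5. At day 7.5 the untreated libraries held 162, 101 and 121 CPM, a further rise of 1.61 ± 0.32 (log2, SE; adjusted p = 0.00485, 11 of 11 alternatives). With HAse1.5 the libraries went from 8.69, 38.0 and 20.4 to 97.0, 99.2 and 102 CPM, a rise of 2.27 ± 0.34 (adjusted p = 2.34e-04). In WT the step to day 7.5 was 1.17 ± 0.35 (adjusted p = 0.054), past the threshold without set A (0.0149) and with the library set as a block (0.98 ± 0.27, adjusted p = 0.0213), and in KO 1.16 ± 0.35 (adjusted p = 0.0333, lost when any 1 of 7 of the 9 libraries was left out).

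CTNNA2 (chr2:79185231-80648861, plus strand) was scarce, with at most 8 counts per genotype library at day 1.5. It rose to 6.28 to 16.9 CPM in WT and 7.46 to 20.4 in KO at day 2.5, by 2.55 ± 0.48 and 3.12 ± 0.47 (log2, SE; adjusted p = 7.15e-05 and 1.60e-06 by edgeR), in all 17 and 18 alternatives. In WT it then fell by 1.43 ± 0.42 (adjusted p = 0.00649, and 0.0892 without set A) to between 1.25 and 5.93 CPM at day 4.5. In KO it ran from 14.5 to 37.0 CPM at day 4.5 (log2 change from day 2.5 of 0.44 ± 0.38, adjusted p = 0.42). With HAse1.5 it rose from 10.3, 7.99 and 6.87 CPM to 40.3, 33.7 and 34.3, by 1.93 ± 0.49 (adjusted p = 0.00578, 11 of 11 alternatives). The day 4.5 libraries belong to the choice of CTNNA2, so p-values of its steps to that day are not independent of it. Ordered by group mean, day 7.5 of HAse1.5 came highest with 63.1 CPM, followed by day 4.5 of HAse1.5 with 36.1 and of KO with 21.6. The lowest were day 7.5 of WT with 2.62 CPM and day 1.5 of both genotypes with 1.47 and 1.45. Of these neighbours, HAse1.5 and KO at day 4.5 differed by more than their joint SD, with overlapping libraries.

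GJA1 (chr6:121435577-121449727, plus strand), the gap junction gene, fell from day 2.5 to 4.5 in all 4 conditions with both days. Untreated libraries held 346, 324 and 232 CPM on day 2.5. On day 4.5 they held 18.4, 37.3 and 36.2 CPM, and 23.2, 10.8 and 12.6 CPM were left on day 7.5. The first fall was 3.43 ± 0.40 in untreated cardioids, 4.31 ± 0.25 in WT, 4.75 ± 0.25 in KO and 2.59 ± 0.37 with HAse1.5 (log2, SE; adjusted p from 5.41e-18 to 2.63e-05 by edgeR), in every alternative. From day 4.5 to 7.5 it fell by a further 2.02 ± 0.37 in KO (adjusted p = 2.41e-04, 15 of 15 alternatives) and by 1.74 ± 0.41 with HAse1.5 (adjusted p = 0.009, lost without TNNI1 at day 4.5, whose 105 CPM stood above the 41.5 and 48.9 of the others).
The early fall in WT, 0.63 ± 0.22 from day 1.5 to 2.5, had an adjusted p of 0.0241 and was lost without cl43_WT_UT at day 2.5 (0.0636). In KO the same step was -0.31 ± 0.21 (adjusted p = 0.265); it included cl4_R1 at day 2.5 with 750 CPM against 343 to 449 in the other 5, a library with the lowest total of all, and without set A GJA1 fell there (adjusted p = 0.00153).

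XIRP1 (chr3:39183210-39192596, minus strand) had 0 counts in all 11 libraries at day 1.5, which allows up to 3 counts per library. At day 2.5 WT libraries held 0 to 2.79 CPM (at most 5 counts) and untreated libraries 1.53, 4.47 and 11.8. The WT call for this first step (adjusted p = 0.0285) held in 8 of 16 alternatives and gave a bound of only 1.02-fold. At day 4.5 WT libraries held 178 to 457 CPM and untreated libraries 379, 179 and 172, rises of 8.29 ± 0.57 and 5.21 ± 0.71 (adjusted p = 5.07e-13 and 3.47e-05), and KO libraries held 31.3 to 178 CPM, at least 49.8-fold above the level of 3 counts at day 2.5. KO rose further to 405, 496 and 363 CPM at day 7.5, by 2.08 ± 0.43 (adjusted p = 0.002, 15 of 15 alternatives).

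The KO and WT groups were then compared on each day. At day 1.5 none of the 10 passed and 2 had an unadjusted p under 0.05 (edgeR); 0% of all genes passed, and DESeq2 called 0 members as well. Days 2.5 and 4.5 chose the genes, so they are described only: 1 of 10 passed at day 2.5 (PKP2, lower), where 0.993% of all genes passed, and 2 of 10 at day 4.5 (CTNNA2 higher, XIRP1 lower), where 3.74% passed. PKP2 at day 2.5 ran from 3.18 to 15.9 CPM in KO (median 9.88) and from 14.2 to 40.3 in WT, which overlap in their ends, with a log2 difference of -1.63 ± 0.34. By library set its KO and WT means were 13.2 and 24.3 CPM in A, 3.18 and 20.8 in B, and 9.97 and 37.6 in C. CTNNA2 at day 4.5 ran from 14.5 to 37.0 CPM in KO (median 19.1) against 1.25 to 5.93 in WT, with no overlap and a difference of 2.36 ± 0.42; the libraries of 2.44% of all genes did not overlap. By set the CTNNA2 means were 22.3 and 3.71 CPM in A, 15.9 and 2.25 in B, and 22.8 and 5.85 in C. XIRP1 at day 4.5 ran from 31.3 to 178 CPM in KO against 178 to 457 in WT, a difference of -1.89 ± 0.38.

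Among the members nearest to the threshold at these 2 days on the other side were DSC2 at day 2.5 (-0.55 ± 0.16; 109 to 163 CPM in KO and 131 to 213 in WT) and, at day 4.5, CDH2 (-0.42 ± 0.19; 453 to 636 CPM in KO and 494 to 803 in WT) and JUP (-0.93 ± 0.42). PKP2 at day 4.5 ran from 53.3 to 122 CPM in KO and from 99.0 to 144 in WT, with overlap. By set its KO and WT means were 98.0 and 99.9 CPM in A, 122 and 143 in B, and 66.2 and 118 in C. With the library set as a block its difference was -0.60 ± 0.24. In the enzyme experiment the nearest was CTNNA3 at day 4.5 with HAse1.5 (-1.14 ± 0.35). At day 4.5 the summed cardiomyocyte markers ran from 15513 to 41617 CPM in KO and from 25253 to 57876 in WT, and 4 smooth muscle markers from 135 to 621 and from 531 to 1689. At day 2.5 the 8 epithelial markers summed to 1121 to 1639 CPM in KO and 1727 to 2849 in WT and the smooth muscle markers to 74.0 to 141 and 149 to 245, both without overlap, and the cardiomyocyte markers to 843 to 1723 and 379 to 2875. At that day KRT5 and MYH7 had no counts in either group, and TP63 none in KO. The part of these markers in the members' values was not tested. In these pooled spheres, fewer cells of a type and less RNA per cell cannot be told apart.

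Day 7.5 was not used in the choice. Genotype and library set are largely confounded there: the WT libraries are 1 of set A and 2 of set B, the KO libraries 1 of set B and 2 of set C, so only set B holds both. None of the 10 passed between KO and WT, 2 had an unadjusted p under 0.05 (edgeR), 0.348% of all genes passed, and DESeq2 called 0 members. CTNNA2 stood at 5.86, 12.1 and 13.9 CPM in KO and at 3.08, 3.49 and 1.29 in WT, which did not overlap, with a log2 difference of 1.95 ± 0.65 (95% interval 0.65 to 3.25; adjusted p = 0.345); 16.8% of all genes had no overlap between the 3 and 3 libraries. Within set B CTNNA2 was 5.86 CPM in KO against 3.49 and 1.29, and with the library set as a block its difference was 1.97 ± 0.63 (adjusted p = 0.176). GJA1 stood at 1.302, 4.03 and 5.97 CPM in KO and at 4.11, 14.7 and 9.70 in WT (-1.32 ± 0.42, adjusted p = 0.287), and within set B at 1.302 against 14.7 and 9.70. Without set A, which leaves 2 WT libraries at that day, GJA1 was lower in KO (adjusted p = 0.009). PKP2 (157, 93.8 and 123 CPM in KO, 130, 147 and 154 in WT) and XIRP1 (405, 496 and 363, against 426, 523 and 515) overlapped, with differences of -0.24 ± 0.40 and -0.24 ± 0.52. CTNNA3 and XIRP1, with at most 3 counts per library at day 1.5, could not be compared between days 7.5 and 1.5. None of the other 8 had a KO difference at day 7.5 that passed against that at day 1.5 (edgeR interaction term; 3 at an unadjusted p under 0.05, DESeq2 0; 0.21% of all genes), with the exception of GJA1 when set A was left out (adjusted p = 0.0223).

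The enzyme experiment gave the second set of contrasts. At day 2.5, 1 day after HAse1.5 began, 2 of 10 were past the threshold against untreated cardioids (PKP2 and DSC2, both lower), where 1.15% of all genes passed, and at day 4.5 5 of 10 (CTNNA2 higher; CDH2, DSP, PKP2 and XIRP1 lower), where 3.48% passed. These contrasts chose the genes and are described only. PKP2 at day 2.5 stood at 4.80, 7.99 and 1.87 CPM with HAse1.5 and at 31.2, 41.1 and 40.4 in untreated cardioids, lower in 3 of 3 lines (-3.00 ± 0.37) and without overlap, where 13.5% of all genes had none. DSC2 stood at 78.9, 90.3 and 107 CPM against 202, 186 and 156 (-1.01 ± 0.19). Beside PKP2 and DSC2, the epithelial markers at day 2.5 summed to 1233 to 2268 CPM with HAse1.5 and 2552 to 3464 in untreated cardioids, the cardiomyocyte markers to 1281 to 1475 and 2725 to 3584, and 5 early mesoderm markers to 201 to 408 and 69.8 to 126, each without overlap. MYH7, KRT5 and TP63 had no counts in either group, MYH6 and ACTN2 none with HAse1.5, and TBXT none in untreated cardioids. The part of these markers in the members' values was not tested. CTNNA2 at day 4.5 stood at 40.3, 33.7 and 34.3 CPM against 5.46, 2.66 and 8.35 (2.59 ± 0.52).
CDH2 at day 4.5 stood at 186, 283 and 209 CPM against 739, 695 and 634 (-1.69 ± 0.24). XIRP1 stood at 17.4, 61.4 and 64.0 CPM against 379, 179 and 172 (-2.45 ± 0.57). The differences of DSP and PKP2 were -0.87 ± 0.23 and -1.07 ± 0.27. The groups did not overlap for any of these 5 genes, and 21.6% of all genes had no overlap. Beside them, the summed cardiomyocyte markers were 5060 to 18597 CPM with HAse1.5 and 23471 to 46169 in untreated cardioids, and the smooth muscle markers 37.2 to 108 and 553 to 1140. The epithelial markers summed to 391 to 794 and 827 to 908 CPM, and epicardium and fibroblast markers to 485 to 631 and 712 to 1522. Endoderm markers summed to 13.8 to 32.3 and 43.1 to 159 CPM, and pluripotency markers to 81.2 to 94.3 and 39.1 to 68.2. KRT5, TP63 and UPK3B had no counts in either group. MYH11, WT1, TBX18 and AFP had none with HAse1.5, and GRHL2 and NANOG none in untreated cardioids. The part of these markers in the members' values was not tested. Of 6 neural and neural crest markers, the summed level was at most 0.62 CPM in the HAse1.5 libraries of day 4.5 and 0 at day 7.5. At day 2.5 it was 3.13 to 11.1 CPM in KO against 0 to 2.78 in WT, and at day 4.5 at most 0.67 in KO and 0 in WT.

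**Figure D3:**
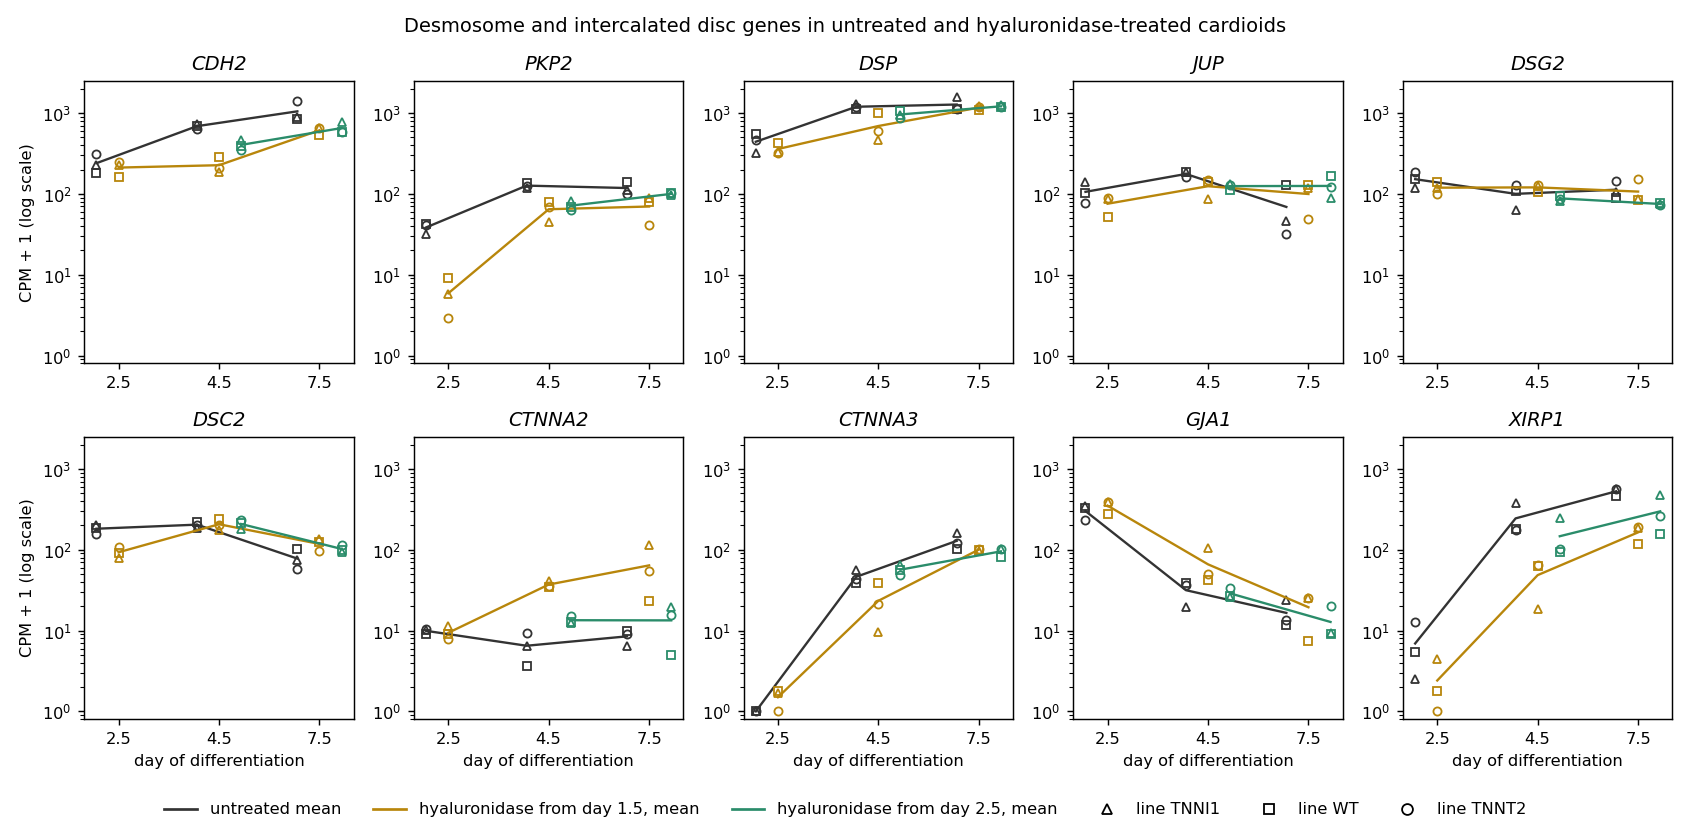
Levels of the 10 genes in each untreated and hyaluronidase-treated library by day, as CPM + 1 on a log scale; symbols mark the line and lines join group means. CTNNA2 is higher with hyaluronidase from day 1.5 at days 4.5 and 7.5, and CDH2 and XIRP1 are lower at day 4.5.

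With HAse2.5, started a day later, none of the 10 passed against untreated cardioids at day 4.5 (edgeR; 2 at an unadjusted p under 0.05, DESeq2 0), where 0.22% of all genes passed; this contrast belongs to the choice as well. CTNNA2 stood at 11.5, 11.7 and 14.1 CPM with HAse2.5, above all 3 untreated and below all 3 HAse1.5 libraries; against untreated cardioids 16.5% of all genes had no overlap. CDH2 stood at 466, 394 and 352 CPM, likewise between the other 2 treatments. The share of all genes that lay between both groups was not counted, so this order cannot be set beside it. Between the 2 start days none of the 10 passed at day 4.5 (6 at an unadjusted p under 0.05; 0.361% of all genes; DESeq2 called CDH2 and CTNNA3): CTNNA2 differed by 1.48 ± 0.47 (adjusted p = 0.194), CDH2 by -0.89 ± 0.24 (adjusted p = 0.107) and CTNNA3 by -1.40 ± 0.34 (adjusted p = 0.0718).

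At day 7.5, which the choice did not use, 2 of 10 passed between HAse1.5 and untreated cardioids, where 3.33% of all genes passed. CTNNA2 stood at 114, 22.3 and 53.0 CPM in the lines TNNI1, WT and TNNT2 with HAse1.5 and at 5.35, 8.93 and 8.16 in the same lines untreated. The groups did not overlap, as for 17.7% of all genes. It was higher in 3 of 3 lines by 2.92 ± 0.50 (log2, SE; 95% interval 1.90 to 3.95; adjusted p = 0.00117 by edgeR), and it passed in 11 of 11 alternatives (largest adjusted p = 0.0352). CDH2 stood at 661, 529 and 648 CPM against 887, 856 and 1415, lower in 3 of 3 lines by 0.90 ± 0.24 (adjusted p = 0.032). The CDH2 call held in 7 of 11 alternatives and was lost without TNNI1 or WT treated or TNNT2 untreated.
With the line as a block PKP2 and XIRP1 were also lower with HAse1.5, so that 4 passed. The share of all genes in that fit is not given here. PKP2 stood at 88.0, 78.4 and 40.4 CPM against 112, 140 and 99.4 (-0.89 ± 0.26 with the block, adjusted p = 0.0454; 0.072 without it). XIRP1 stood at 185, 117 and 188 CPM against 565, 458 and 563 (-1.83 ± 0.50 with the block, adjusted p = 0.0472; 0.073 without it), without overlap. The summed cardiomyocyte markers at that day were 29987 to 33149 CPM with HAse1.5 and 60995 to 71599 in untreated cardioids. Epithelial markers summed to 203 to 249 and 368 to 519 CPM, and smooth muscle markers to 457 to 706 and 779 to 1702. Endoderm markers summed to 43.1 to 73.9 and 75.9 to 205 CPM, and pluripotency markers to 16.3 to 30.7 and 12.1 to 12.6. NANOG, SOX2, ZFP42, KRT5, TP63 and GRHL2 had no counts in either group, and CDH1, AFP and MYH11 none with HAse1.5. The pluripotency sums there rest on POU5F1 and DPPA4 alone. The part of these markers in the members' values was not tested.

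**Figure D4:**
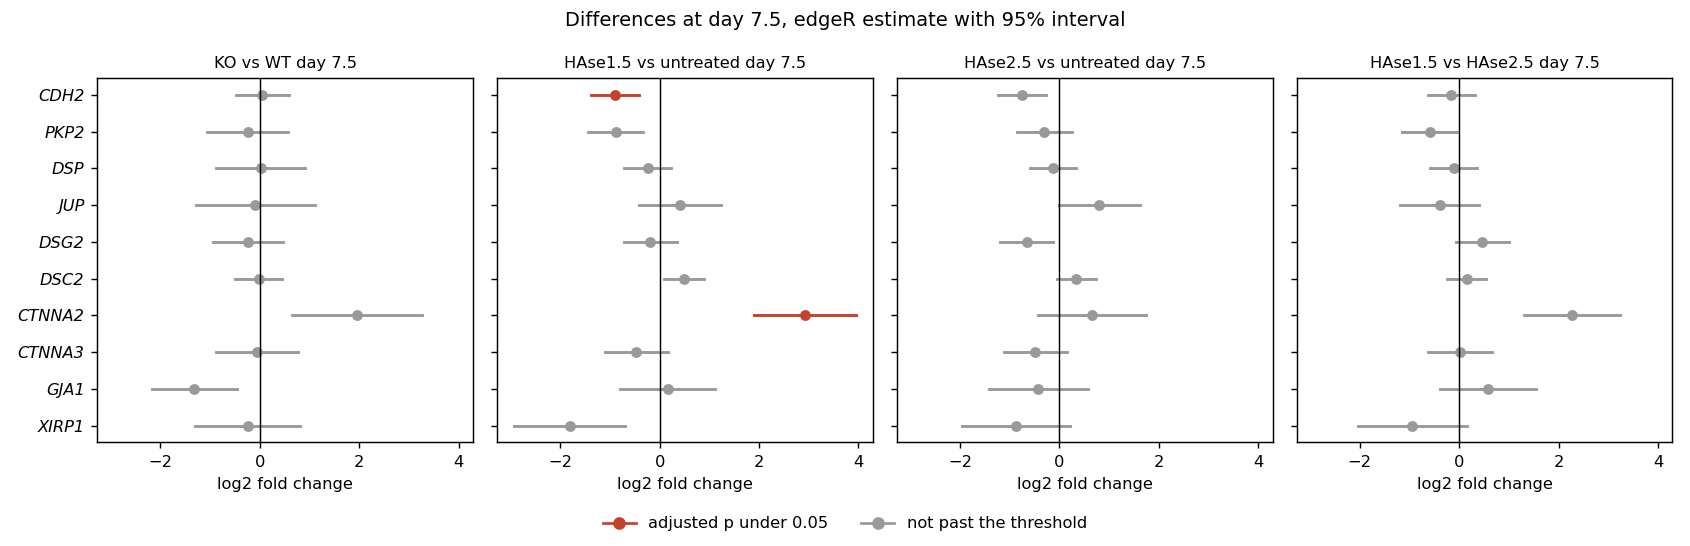
Log2 differences of the 10 genes in 4 comparisons at day 7.5, with 95% intervals; red marks an adjusted p under 0.05. CTNNA2 is 2.92 higher and CDH2 0.90 lower with hyaluronidase from day 1.5 than in untreated cardioids, and no other value passes.

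With HAse2.5 none of the 10 passed against untreated cardioids at day 7.5 (edgeR; 2 at an unadjusted p under 0.05; DESeq2 0), where 0.659% of all genes passed. CTNNA2 stood at 18.7, 4.03 and 14.4 CPM (0.65 ± 0.53, 95% interval -0.44 to 1.74). Between HAse1.5 and HAse2.5 at day 7.5 none of the 10 passed (edgeR; 2 at an unadjusted p under 0.05), where 0.00784% of all genes did; CTNNA2 was higher with HAse1.5 in 3 of 3 lines by 2.27 ± 0.47 (adjusted p = 0.107), and it passed with the line as a block (adjusted p = 0.0252) and in DESeq2, which called 1 member. The test of KO minus WT against HAse1.5 minus untreated at day 7.5 found no member that differed (0 of 10 by edgeR, 3 at an unadjusted p under 0.05; DESeq2 0; 0.0925% of all genes), and for CTNNA2 the difference between them was -0.98 ± 0.86.

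The genes of the table closest to each member over the 16 groups, by Pearson's r of mean log2 CPM among 12566 genes, are a description of shared courses. PKP2 lay closest to TBX5 (0.988), PLEKHA7 (0.975) and PLAAT1 (0.974), and XIRP1 to LDB3 (0.991), MYH6 (0.991) and ACTN2 (0.989). DSP lay closest to CRIP2 (0.981), LMO7 (0.981) and HMGB1P39 (0.979). For JUP they were DAG1 (0.933), DOK5 (0.929) and RAB5B (0.920). For DSG2 they were FGD6 (0.915), FNBP1L (0.905) and POLD3 (0.902). For DSC2 they were GNG2 (0.933), TMEM135 (0.921) and DHRS3 (0.915). For CDH2 they were EZR (0.935), MIR4435-2HG (0.935) and MGAT5 (0.925). For CTNNA2 they were GATA2-AS1 (0.946), STXBP4 (0.936) and ENSG00000274422 (0.925). For CTNNA3 they were ENSG00000268518 (0.996), VCAM1 (0.993) and MASP1 (0.993). For GJA1 they were MCM6 (0.984), MIS18A (0.981) and MCM7 (0.980).

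Other junction genes were read from 4 lists: 11 further desmosomal genes, 16 adherens junction genes, 9 gap junction genes and 12 genes associated with the intercalated disc. In WT from day 2.5 to 4.5, 6 of the 10 disc-associated genes tested rose and none fell, where 18.6% of all genes rose and 15.9% fell, among them MYZAP (7.48 ± 0.65), a desmoplakin-binding disc protein, and XIRP2 (6.14 ± 1.25), a relative of XIRP1. Of 5 desmosomal genes tested, DSC3 rose (2.99) and PERP (-1.79) and PKP4 (-0.70) fell; of 15 adherens junction genes 2 rose and 2 fell, near the share of all genes, CTNND2 rising by 1.67 and CDH11 falling by 2.29; and of 4 gap junction genes GJA3 rose (6.51). At day 7.5 between KO and WT, PERP, which encodes a desmosomal membrane protein, was the only one of 34 genes tested on the 4 lists that passed: 25.9 to 44.3 CPM in KO against 74.7 to 90.8 in WT (-1.30 ± 0.28, adjusted p = 0.0134 by edgeR), where 0.348% of all genes passed. In set B it was 44.3 CPM in KO against 74.7 and 86.0 in WT.
With HAse1.5 at day 7.5, 3 of 29 passed, where 3.33% of all genes did: PERP (9.06 to 42.4 CPM against 40.8 to 80.4; -1.62 ± 0.40, adjusted p = 0.0215), ANK2 (ankyrin B; -0.86 ± 0.22, adjusted p = 0.032) and LMOD2 (leiomodin 2, which builds thin filaments; 9.78 to 11.9 CPM against 51.1 to 85.3, -2.81 ± 0.56, adjusted p = 0.00542), all lower. With HAse2.5 at day 7.5 only CDH4 of the 29 passed (-3.60 ± 0.68, adjusted p = 0.0153), where 0.659% of all genes did.

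Some members overlap other annotated genes. CTNNA2 and CTNNA3 hold LRRTM1 and LRRTM3 in introns on the opposite strand, with 229 and 81 counts over all 65 libraries beside 1320 and 4226 for the members, and PKP2 holds an intronic RNA on its own strand with 241 counts beside 6496. Genes whose exons overlap those of CDH2, DSG2 or CTNNA2 had at most 3 counts each. The strand setting of the counting is not given in the sources used here, so reads from overlapping exons cannot be told apart by strand. The exons of LRRTM1, LRRTM3 and the intronic RNA of PKP2 do not overlap those of the members. The processed copy GJA1P1 had 3 counts in all.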

How the data were processed

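RNA of cardioids was read with a 3′ mRNA kit (QuantSeq FWD), per the labels' protocols. The deposited table holds the authors' whole-number read counts per Ensembl gene, made with featureCounts (Subread 1.6.2) on hg38 (GRCh38), per the submitters' processing notes; the aligner, annotation and strand setting are not given in the sources used here. All 58735 gene IDs occur in GENCODE 29, which gave the gene positions, and 58207 had a current symbol. The table has 4 columns of no listed sample, which were not used.

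CPM are counts per 1000000 counts of the library. The likeness and correlations used edgeR's log2 CPM with a prior count of 2. Tests were edgeR (4.0.16, R 4.3.3) quasi-likelihood F-tests on the deposited counts, one mean per group within each experiment, filterByExpr with a minimum count of 10, TMM scaling, robust dispersions and Benjamini-Hochberg adjustment over every gene in the test (threshold 0.05); the test of KO against HAse1.5 used a fit over both experiments. Errors of log2 changes are standard errors, from the change and its F statistic. A group with at most 3 counts in every library was taken at 3 counts for folds. Depth sets the precision of low genes, and such limits cover counting error only. On simulated counts for KO against WT at day 7.5 (12814 genes) 83.8% of 200 genes changed by a log2 fold of 2 were recovered, and for HAse1.5 against untreated at day 7.5 (12145 genes) 82.2%. Of the genes called, 5.88% and 7.1% were false. The recovery of smaller changes is not given here.

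The 10 members, the other gene lists and the tests were chosen with earlier results of these data known. All members are named, with the 3 genes closest to each, and other junction genes were named where past the threshold, at most 2 in each direction per list. In the enzyme experiment the replicate number is the cell line, which pairs the libraries; same-numbered libraries correlated above 0.1 in 15 of 21 group pairs (lowest -0.099). Alternatives were RLE factors, no filter, DESeq2 (1.42.0), only the groups compared, a replicate block (the line in the enzyme and the library set in the genotype experiment), each library left out and, added after seeing the data, all libraries of set A left out. Promoter windows are RefSeq's (GRCh38.p14).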

Additional observations from a re-analysis of the deposited data

Results flagged for a closer look

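In each group of 4 to 6 libraries with more than 3 counts, the highest and the lowest level of each member were set against Dixon's 95% limit; 53 such groups were checked and 4 libraries stood apart, where chance flags about 1 in 20 groups. JUP stood at 192 CPM in clone cl4, library R1, at day 1.5, against 17.9 to 71.4 in the other 5 KO libraries. CDH2 stood at 964 CPM in cl14_R1 of day 1.5, against 526 to 689 in the others. In cl4_R1 of day 2.5, GJA1 stood at 750 CPM against 343 to 449, and DSP at 236 CPM against 378 to 452. That library has the lowest total of all (831062 counts), and it and cl4_R1 of day 1.5 belong to set A; what sets them apart was not tested.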

How the results depend on the processing

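Of 334 counts of members past the threshold under an alternative, 278 lay within 1.5 times the reported count; of 774 values of single calls, 713 stayed past the threshold in the same direction, 61 did not, and 0 reversed. Without a filter on low counts the number was 0 for WT day 4.5 to 7.5 (1 reported), 5 for untreated day 4.5 to 7.5 (2), 3 for HAse2.5 day 4.5 to 7.5 (1), 1 for HAse2.5 against untreated at days 4.5 and 7.5 (0 each), and 4 and 1 for HAse1.5 against HAse2.5 at days 4.5 and 7.5 (0 each). DESeq2 gave 2, 4 and 2 for the day 4.5 to 7.5 steps of WT, untreated and HAse2.5, 2 for KO against WT at day 2.5 (1), and 2 and 1 for HAse1.5 against HAse2.5. RLE factors gave 2 for WT day 4.5 to 7.5. A fit of only the groups compared gave 3 for HAse1.5 day 4.5 to 7.5 (6), 3 for HAse2.5 day 4.5 to 7.5, 3 for HAse1.5 against untreated at day 4.5 (5) and 2 for HAse2.5 against untreated at day 4.5. Without set A, an alternative chosen after seeing the data, the number was 2 for WT day 4.5 to 7.5, 7 for KO day 1.5 to 2.5 (4, with DSG2, GJA1 and JUP added), 1 for KO against WT at day 7.5 and 1 for the KO difference at day 7.5 against day 1.5. Calls over all genes grew without set A too. Over KO day 1.5 to 2.5, 2993 of 13739 genes rose, against 2376 of 13797 with set A. Over WT day 4.5 to 7.5, 334 of 13739 rose, against 173 of 13797. The cause was not tested.

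With a replicate block, the line in the enzyme and the library set in the genotype experiment, the number was 2 for WT day 4.5 to 7.5, 2 for KO against WT at day 2.5, 4 for HAse1.5 against untreated at day 7.5 (2) and 1 for HAse1.5 against HAse2.5 at day 7.5; it moved no other count of members by over 1.5 times. Over all genes the block also raised the calls for WT day 4.5 to 7.5, with 450 of 13797 rising against 173 without it. Replicate numbers of the genotype experiment recur across sets and do not pair its samples: 9 of 32 same-numbered pairs correlated above 0.1, the lowest at -0.421. WT and KO libraries of one day correlated at 0.245 to 0.798 within set A, -0.074 to 0.261 within B and 0.016 to 0.424 within C, and at a median of -0.071 between sets. Leaving out each library in turn gave 0 to 2 for WT day 4.5 to 7.5, 2 to 4 for KO and for untreated day 4.5 to 7.5, 3 to 5 for HAse1.5 and 0 to 1 for HAse2.5 day 4.5 to 7.5, 1 to 2 for KO against WT at day 2.5, 1 to 2, 2 to 6 and 1 to 4 for HAse1.5 against untreated at days 2.5, 4.5 and 7.5, 0 to 2 for HAse2.5 against untreated at day 7.5, and 0 to 3 and 0 to 1 for HAse1.5 against HAse2.5 at days 4.5 and 7.5. Depth limits PKP2 and CTNNA2 at day 1.5, with at most 8 counts in a library, CTNNA3 up to day 2.5, with at most 3, and XIRP1 in the genotype libraries up to day 2.5, with at most 5. It also limits later contrasts: CTNNA2 had 2 to 18 counts per library in WT and 3 to 12 in untreated cardioids at day 4.5. At day 7.5 CTNNA2 had 2 to 6 in WT and 6 to 14 in untreated cardioids. PKP2 had 3 to 10 and XIRP1 0 to 5 with HAse1.5 at day 2.5, and GJA1 had 2 to 9 in KO at day 7.5.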
